A study of Mus musculus with 25 samples.

Results

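The comparison set starved KPC cells carrying the second short hairpin against Slug (shSlug2) against starved KPC cells carrying a hairpin against luciferase (shLuc), an enzyme that mouse cells do not have. Its members were the 5 libraries labelled shSlug2 and the 5 labelled shLuc, 10 of the 25 libraries of the series. Both groups were derivatives of 1 mouse pancreatic ductal adenocarcinoma line on a C57BL/6 background, the KPC line, and both had spent 24 h in glutamine-free medium with 10% dialysed serum. The other 15 libraries, used here for reference, were starved cells with a first Slug hairpin (shSlug1), the parental line under the same starvation and the parental line in complete DMEM, 5 libraries each. The hairpin lines were measured only under starvation, so what shSlug2 does in complete medium was not analysed here. The labels do not say whether a hairpin line was 1 clone or a pool, nor whether the 5 replicates came from separate cultures, and p-values therefore describe the spread of these libraries, which may be technical.

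Slug, the product of Snai2, is a zinc-finger repressor that binds E-boxes of the sequence CAGGTG and silences genes of epithelial junctions. It is one of the factors that drive the epithelial-mesenchymal transition (EMT), in which carcinoma cells lose junctions and keratins and gain matrix and motility genes. In pancreatic carcinoma cells, glutamine is a main source of carbon and nitrogen, and its withdrawal slows nucleotide synthesis and division and turns on the ATF4-driven amino acid response.

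Messenger RNA was measured by 3′-end sequencing, and values are in CPM, a gene's counts scaled to a common library total. The libraries held 241340 to 415274 counts with shSlug2 and 269675 to 368504 with shLuc, so that 1 count was worth 2.41 to 4.14 CPM with shSlug2 and 2.71 to 3.71 CPM with shLuc. Ductal tumour markers summed to 5295 to 6424 CPM with shSlug2 and 4955 to 6469 CPM with shLuc, with all 10 detected with shSlug2 and 9 of 10 with shLuc, where Cldn4 was at 0. Krt18 made up most of that sum, and Epcam had 10 counts in all 25 libraries. Lists that mark stroma, leucocytes, vessels, exocrine and endocrine pancreas summed to at most 38.5 CPM in any of these 10 libraries, with Col3a1 and Lum at 0 in both groups. Mitochondrially encoded genes took 14.2% to 17.7% of the counts with shSlug2 and 17.3% to 21.7% with shLuc, a lower share with shSlug2 (exact permutation test over 5 against 5 libraries, two-sided, p = 0.0238).

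Snai2 was lower with the second hairpin in every library. It had 4.82, 5.76, 7.66, 0 and 3.23 CPM in the 5 shSlug2 libraries, against 92.7, 66.0, 34.1, 38 and 48.8 CPM in the 5 shLuc libraries. The groups did not overlap, and the lowest shLuc library was above the highest shSlug2 library. The 0 in shSlug2 replicate 4 allows up to 12.4 CPM at the depth of that library. The mean was 4.29 ± 2.89 CPM with shSlug2 and 55.9 ± 24.0 CPM with shLuc (SD, n = 5 each), 13.0 times higher with shLuc. The log2 change was -3.64 (SE 0.55, limma adjusted p = 2.0e-05), and the exact permutation test gave p = 0.00794, the smallest that 5 against 5 libraries allow.

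The first hairpin left 6.09 ± 3.75 CPM of Snai2, and the exact permutation test did not separate it from the second (p = 0.429). The parental line had 79.5 ± 14.5 CPM under starvation and 7.54 ± 5.42 CPM in complete medium, and Snai2 in the shSlug2 libraries overlapped that of unstarved parental cells (exact permutation p = 0.317). Snai2 lies on chromosome 16 (chr16:14705852-14709385, plus strand, mm10). Where in the message the hairpins bind is not stated by the labels.

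**Figure D1:**
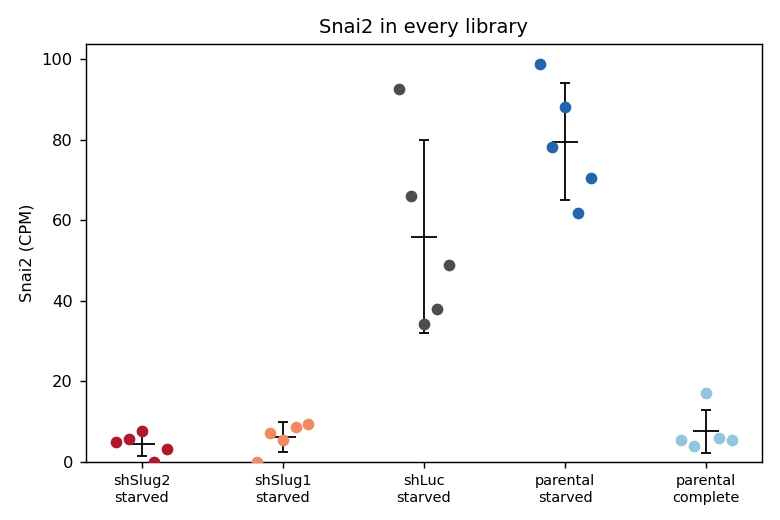
Snai2 in CPM (vertical axis) in each of the 5 libraries of the 5 groups (horizontal axis); points are libraries, the bar is the mean and the whiskers are ± 1 SD. The shSlug2 libraries lie between 0 and 7.66 CPM, beside the shSlug1 and the complete-medium libraries, and the shLuc libraries between 34.1 and 92.7 CPM.

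Across the transcriptome few genes were called between shSlug2 and shLuc at these depths, and more of them were higher than lower with shSlug2. Of 12473 genes tested in a limma fit of all 25 libraries on log2(CPM + 1), 81 (0.649%) differed from shLuc at an adjusted p under 0.05, of which 59 (0.473%) were higher with shSlug2 and 22 (0.176%) lower. At an unadjusted p under 0.05 there were 1132. In 65 of the 81 the 5 shSlug2 and the 5 shLuc libraries did not overlap, while 258 (2.07%) of all genes tested had no overlap. Only 20 of the 81 changed by a log2 of 1 or more, 12 of them higher and 8 lower. In the plot of change against level, nearly every call lies in a band on either side of 0, with Snai2 and the low-count predicted gene Gm15834 far below them. Gm15834 averaged 3.57 ± 7.99 CPM with shSlug2 and 12.2 ± 3.73 CPM with shLuc with overlapping groups, and its call was lost in 9 of the 10 leave-one-out fits (named after its values were seen).

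Many of these calls were lost when 1 library was left out. Of the 81, 38 (30 higher and 8 lower) kept an adjusted p under 0.05 in all 10 fits that left out 1 library. On the recovered counts, 79 were also called by edgeR and 75 by DESeq2. DESeq2 gave no adjusted p for 9431 of the genes tested. Below, a list without a DESeq2 call may hold such genes, for which DESeq2 decides nothing. The excess of higher genes depended on the scaling. The higher share was 72.8% of 81 as deposited, 54.3% of 70 after quantile scaling, 57.3% of 75 with CPM rescaled without the mitochondrially encoded genes and 60.1% of 158 in edgeR with RLE size factors. The mitochondrially encoded list itself had 16 of 17 tested members below 0 with a median log2 of -0.36, against 0.01 over all genes tested. None of them passed in limma (7 at an unadjusted p under 0.05), while edgeR called 1 with TMM scaling (mt-Nd4) and 4 with RLE factors (mt-Cytb, mt-Nd2, mt-Nd4 and mt-Nd5), and DESeq2 called 2 (mt-Nd2 and mt-Nd4), all lower with shSlug2.

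**Figure D2:**
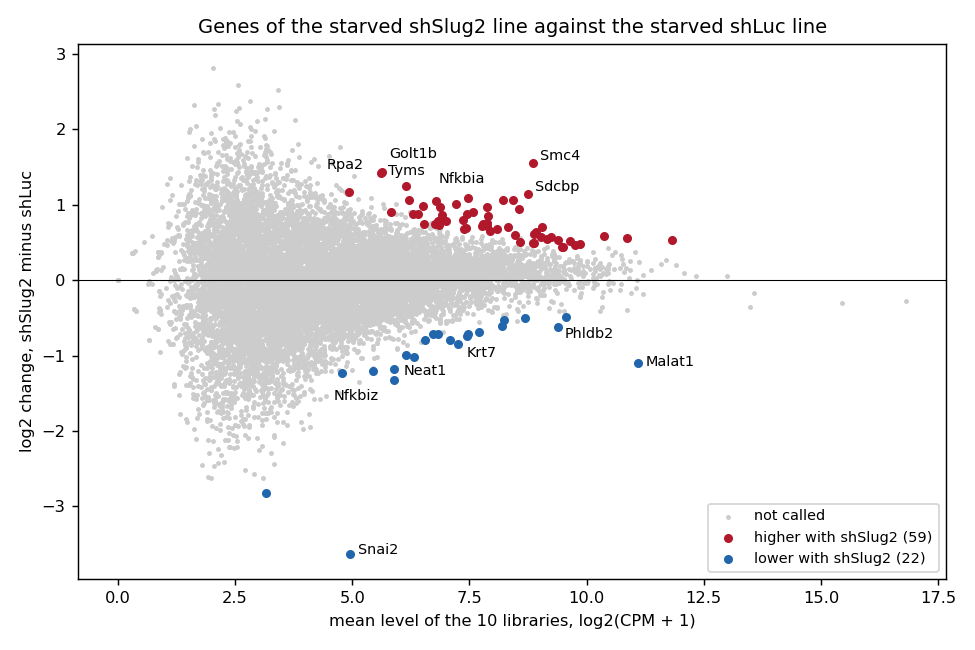
Log2 change of shSlug2 minus shLuc (vertical axis) against the mean level of the 10 libraries in log2(CPM + 1) (horizontal axis) for the 12473 genes tested; red points are the 59 higher and blue points the 22 lower calls at an adjusted p under 0.05. Smc4 is the highest of the calls at 1.55 and Snai2 the lowest at -3.64.

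Of the gene lists, DNA replication had the most higher calls. Of 50 measured genes of replication and nucleotide supply, 7 rose with shSlug2 and none fell, against 0.473% and 0.176% of all genes tested, and 46 of 50 had a log2 change above 0. Their median log2 change was 0.53, and it stayed between 0.47 and 0.53 under every scaling and tool tried. They included Tyms, Rpa2, Asf1b, Mcm7, Mcm3 and Rfc4. Between 3 and 8 of the 50 were called over the alternatives, the fewest without shLuc replicate 4.

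Tyms, thymidylate synthase, makes the thymidine nucleotide that only DNA uses. It had 96.3, 74.8, 86.8, 141 and 93.7 CPM with shSlug2, against 37.1, 33.0, 55.8, 31.6 and 46.1 CPM with shLuc. The groups did not overlap, and the log2 change was 1.25 (SE 0.21, adjusted p = 0.00024). Rpa2, a subunit of the complex that coats single-stranded DNA at the fork, had 50.6, 60.4, 68.9, 62.2 and 107 CPM with shSlug2, against 22.2, 19.2, 37.2, 15.8 and 35.3 CPM with shLuc. Every shSlug2 library was above every shLuc library (log2 change 1.42, SE 0.29, adjusted p = 0.0033).

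Mcm7 and Mcm3, subunits of the replicative helicase, averaged 142 ± 20.5 and 134 ± 18.1 CPM with shSlug2, against 84.2 ± 14.7 and 79.9 ± 14.8 CPM with shLuc. Both were without overlap, with log2 changes of 0.76 and 0.75. Mcm3 fell outside the rule for named genes and was chosen after its values were seen. The Mcm7 call was lost without shLuc replicate 4 or shSlug2 replicate 5, and the Mcm3 call without shLuc replicate 3 or shSlug2 replicate 1, with adjusted p up to 0.0545 and 0.0587.

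Rfc4, a subunit of the clamp loader, had 330, 325, 385, 580 and 381 CPM with shSlug2, against 267, 234, 267, 203 and 236 CPM with shLuc. All shSlug2 libraries were higher, and replicate 4 stood above its group. The log2 change was 0.70 (SE 0.16, adjusted p = 0.0089), with adjusted p up to 0.115 without shSlug2 replicate 4 or shLuc replicate 4. Asf1b, a chaperone that delivers histones behind the fork, averaged 107 ± 22.3 CPM with shSlug2 and 59.6 ± 19.5 CPM with shLuc, with overlapping groups (log2 change 0.88, adjusted p = 0.031, lost in 5 of the 10 leave-one-out fits). The other 43 members did not pass. Among them Pcna, the sliding clamp, averaged 104 CPM with shSlug2 and 84.7 CPM with shLuc (log2 change 0.30, adjusted p = 0.69), and Mcm6 averaged 44.6 CPM with shSlug2 and 43.7 CPM with shLuc (-0.03, adjusted p = 0.99).

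Genes that fold and hold chromosomes gave the largest single increase. Smc4, the ATPase core shared by both condensin complexes, had 614, 642, 694, 738 and 740 CPM with shSlug2, against 252.2, 234, 229, 212 and 242 CPM with shLuc. The groups lay far apart and each was narrow, with a mean 2.93 times higher with shSlug2 and a log2 change of 1.55 (SE 0.14, adjusted p = 7.9e-12). Smc4 lies at chr3:69004738-69034623 on the plus strand (mm10). Ncapd3, a subunit of condensin II, had 62.6, 118, 74.0, 120 and 123 CPM with shSlug2, against 37.1, 55, 49.6, 31.6 and 59.7 CPM with shLuc. The groups did not overlap, though the highest shLuc library came close to the lowest shSlug2 library (log2 change 1.06, SE 0.22, adjusted p = 0.0049).

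Ncapg2, another condensin II subunit, averaged 39.1 ± 2.92 CPM with shSlug2 and 20.1 ± 13.4 CPM with shLuc (log2 change 1.17, adjusted p = 0.037). Its shLuc libraries ranged from 7.42 to 38 CPM and overlapped the shSlug2 libraries. It was not called by edgeR, and DESeq2 gave it no adjusted p. These were the 3 of 22 measured condensin, cohesin and related genes that passed, and none fell, against 0.473% higher and 0.176% lower of all genes tested. The median of the list was 0.18, with 14 of 22 above 0. Smc2, the partner of Smc4 in both condensins, averaged 139 CPM with shSlug2 and 117 CPM with shLuc (log2 change 0.25, adjusted p = 0.74). The cohesin subunits Smc3 (341 CPM with shSlug2, 290 CPM with shLuc) and Rad21 (107 CPM with shSlug2, 122 CPM with shLuc) did not pass.

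The median log2 change of 52 genes of mitosis was 0.13. Of these, 1 rose and none fell, against 0.473% higher and 0.176% lower of all genes tested. The one was Plk1, a kinase of mitotic entry and spindle assembly, with 132, 130, 133, 207 and 171 CPM with shSlug2, against 77.9, 85.2, 105, 66.5 and 86.8 CPM with shLuc. The groups did not overlap (log2 change 0.86, SE 0.19, adjusted p = 0.0068), and without shSlug2 replicate 4 the adjusted p was 0.0586. Hells, a chromatin remodeller needed for DNA methylation of repeats, had 330, 299, 283, 381 and 255 CPM with shSlug2, against 178, 170, 136, 158 and 141 CPM with shLuc, again without overlap (log2 change 0.97, SE 0.14, adjusted p = 4.0e-06).

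**Figure D3:**
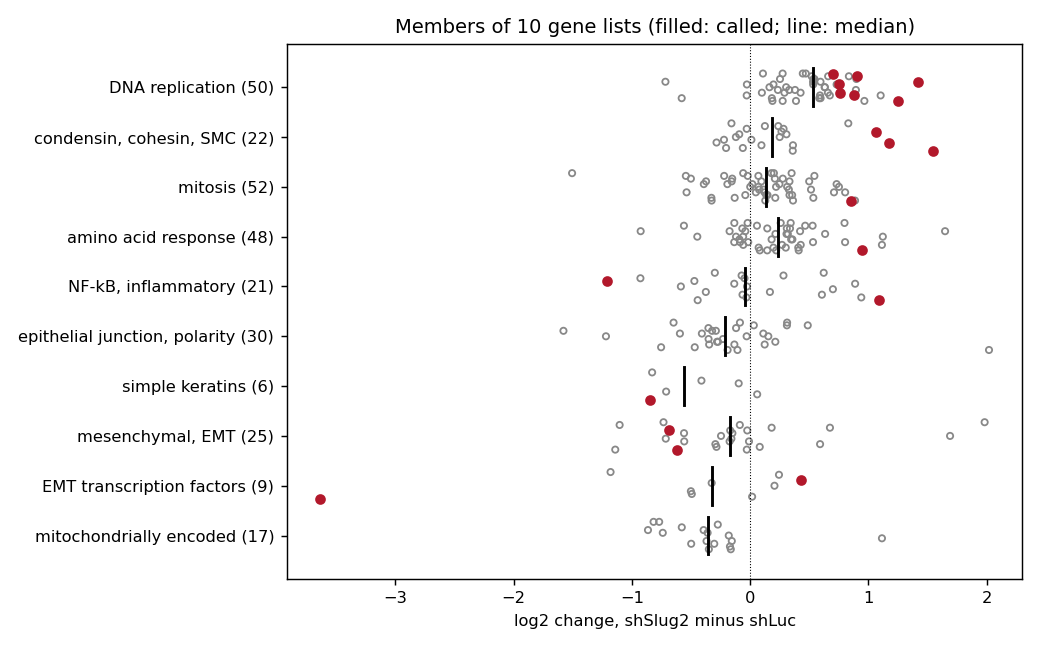
Log2 change of shSlug2 minus shLuc (horizontal axis) for every tested member of 10 gene lists (rows, number tested in brackets); filled points are calls at an adjusted p under 0.05 and the line is the median of the list. The DNA replication row lies almost wholly right of 0 with a median of 0.53, and the mitochondrially encoded row almost wholly left of it with a median of -0.36.

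Of 32 genes that report ERK signalling, 1 rose and none fell in limma, against 0.473% and 0.176% of all genes tested. The median log2 change of the 32 was -0.05. edgeR added Ccnd1, cyclin D1, as lower, and DESeq2 added Ccnd1 as lower and Fosl1 and Myc as higher. The limma call was the immediate early gene Ier2, with 1079 ± 112 CPM with shSlug2 and 777 ± 115 CPM with shLuc (log2 change 0.48, adjusted p = 0.040, lost in 7 of the 10 leave-one-out fits, after TMM or quantile scaling and without mitochondrially encoded genes). Dusp6, a phosphatase that ERK induces, averaged 112 ± 22.3 CPM with shSlug2 and 113 ± 13.1 CPM with shLuc (log2 change -0.03, SE 0.19).

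Sdcbp, the membrane scaffold syntenin, had 607, 564, 518, 667 and 585 CPM with shSlug2, against 222, 261, 285, 253 and 318 CPM with shLuc. Every shSlug2 library lay far above every shLuc library, and the log2 change was 1.14 (SE 0.13, adjusted p = 8.5e-09). Golt1b, a Golgi vesicle protein, had 72.2, 66.2, 76.6, 53.9 and 87.3 CPM with shSlug2, against 26.0, 22, 18.6, 41.1 and 24.4 CPM with shLuc, without overlap (log2 change 1.43, SE 0.26, adjusted p = 0.00087). Snhg15, a host gene of small nucleolar RNAs, averaged 464 ± 49.8 CPM with shSlug2 and 224 ± 47.6 CPM with shLuc, without overlap (log2 change 1.07, adjusted p = 0.0026). Afg3l1, Limd2 and Ggnbp2 were also higher without overlap. Afg3l1, a protease of the mitochondrial inner membrane, averaged 119 ± 6.14 CPM with shSlug2 and 60.5 ± 12.4 CPM with shLuc. Limd2, a small LIM-domain protein, averaged 153 ± 13.8 CPM with shSlug2 and 78.2 ± 8.42 CPM with shLuc. Ggnbp2 averaged 248 ± 44.0 CPM with shSlug2 and 133 ± 29.4 CPM with shLuc. Their log2 changes were 0.99, 0.97 and 0.91.

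Nfkbia and Nfkbiz, 2 regulators of NF-kB from 1 family, moved in opposite directions. Nfkbia, which holds NF-kB in the cytoplasm and is itself an NF-kB target, had 212, 256, 278, 232 and 210 CPM with shSlug2, against 92.7, 132, 161, 94.9 and 86.8 CPM with shLuc. The groups did not overlap (log2 change 1.09, SE 0.21, adjusted p = 0.0013). Nfkbiz, a nuclear member of the same family that modulates transcription of inflammatory genes, had 19.3, 23, 33.2, 20.7 and 29.1 CPM with shSlug2, against 40.8, 66.0, 83.7, 60.1 and 48.8 CPM with shLuc. It fell without overlap (log2 change -1.21, SE 0.26, adjusted p = 0.0053). These were the 2 calls among 21 measured NF-kB and inflammatory genes, against 0.473% higher and 0.176% lower of all genes tested. The median log2 change of the 21 was -0.05.

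The amino acid response gave 1 higher call among 48 measured genes, against 0.473% of all genes tested. The median log2 change of the 48 was 0.24. Mthfd2, a mitochondrial enzyme of one-carbon metabolism that ATF4 induces, had 445, 558, 447, 547 and 485 CPM with shSlug2, against 271, 267, 220, 263 and 266 CPM with shLuc. The groups lay well apart (log2 change 0.94, SE 0.13, adjusted p = 2.4e-06). Asns, asparagine synthetase, averaged 574 ± 48.2 CPM with shSlug2 and 460 ± 28.4 CPM with shLuc. Its libraries did not overlap but the change of 0.32 (SE 0.13) did not pass (adjusted p = 0.41). Atf4 (222 ± 16.2 CPM with shSlug2, 195 ± 29.4 CPM with shLuc), Trib3 (96.0 ± 20.5 CPM with shSlug2, 99.8 ± 18.7 CPM with shLuc) and Ddit3 (46.1 ± 11.7 CPM with shSlug2, 63.7 ± 19.1 CPM with shLuc) did not pass either.

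Of 19 cytosolic aminoacyl-tRNA synthetases, Yars, which charges tyrosine, rose to 208 ± 27.0 CPM with shSlug2, against 121 ± 24.4 CPM with shLuc (log2 change 0.79, adjusted p = 0.019, lost without shLuc replicate 1, shLuc replicate 4 or shSlug2 replicate 4). Of 31 genes of the TCA cycle and its entry, Pdhb, a subunit of pyruvate dehydrogenase, rose to 139 ± 17.1 CPM with shSlug2, against 84.6 ± 24.1 CPM with shLuc (log2 change 0.74, adjusted p = 0.046, lost in 7 of the 10 leave-one-out fits, after each rescaling and with the replicate block). Yars and Pdhb were each the 1 higher call of their list, against 0.473% of all genes tested. None of 24 genes of glutamine metabolism and transport passed in limma, edgeR or DESeq2, and 2 had an unadjusted p under 0.05. In limma 0.649% of all genes tested were called, so a list of 24 is apt to hold none.

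The following 6 higher calls were chosen after their values were seen. Eif5, a factor of translation initiation, averaged 623 ± 17.8 CPM with shSlug2 and 420.4 ± 31.2 CPM with shLuc (log2 change 0.57, adjusted p = 0.0025), and Gspt1, a factor of translation termination, averaged 791 ± 42.4 CPM with shSlug2 and 547 ± 41.7 CPM with shLuc (0.53, adjusted p = 0.0026). Nop58, a core protein of small nucleolar RNPs, averaged 678 ± 62.9 CPM with shSlug2 and 463 ± 33.7 CPM with shLuc (0.55, adjusted p = 0.0036). Exosc8, a subunit of the RNA exosome, averaged 337 ± 39.3 CPM with shSlug2 and 209 ± 19.8 CPM with shLuc (0.68, adjusted p = 0.0035). Ranbp1, which serves nuclear transport, averaged 2226 ± 202 CPM with shSlug2 and 1516 ± 86.2 CPM with shLuc (0.55, adjusted p = 0.00057). Sae1, a subunit of the SUMO-activating enzyme, averaged 301 ± 29.9 CPM with shSlug2 and 171 ± 47.2 CPM with shLuc (0.85, adjusted p = 0.00065). All 6 had groups without overlap and were called in all 10 leave-one-out fits. Ribosomal protein genes themselves gave no call among 82 in limma (5 at an unadjusted p under 0.05), and edgeR and DESeq2 each called 1 as higher. In limma 0.649% of all genes tested were called.

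Several other programmes gave no call in limma, where 0.649% of all genes tested were called. At that share, lists of these sizes are apt to hold no call. Of all 12473 genes tested, 1132 had an unadjusted p under 0.05. Of 27 YAP targets none passed (7 at an unadjusted p under 0.05), and edgeR called none while DESeq2 called 2, Crim1 and Myof, as lower. The lists of TGF-beta signalling (28 tested, 3 at an unadjusted p under 0.05), sterol synthesis (33, 5), glycolysis and hypoxia (31, 5), the unfolded protein response (27, 2), p53 targets (27, 2) and NRF2 targets (30, 3) gave none in limma, edgeR or DESeq2. The same held for interferon and MHC class I genes (14 tested, 2 at an unadjusted p under 0.05), EGFR ligands (14, 0) and chemokines (11, 1).

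**Figure D4:**
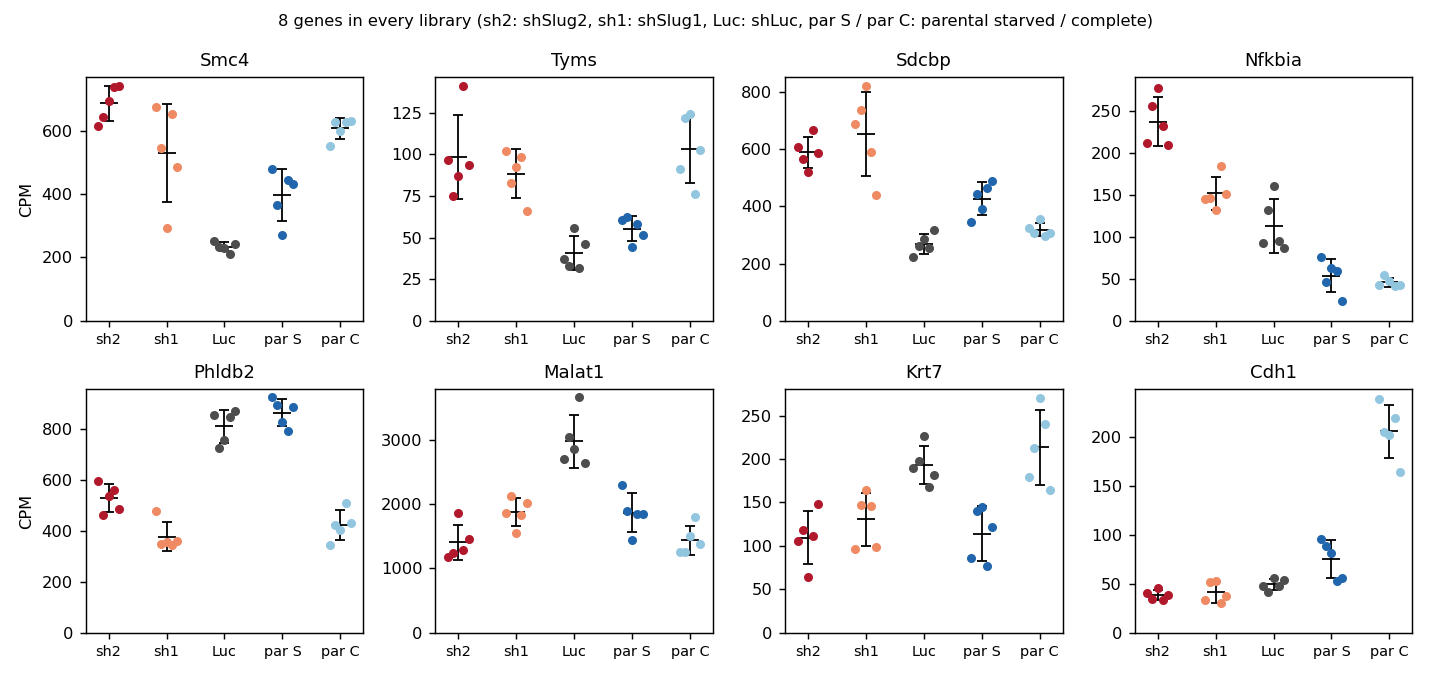
CPM (vertical axes, each from 0) of 8 genes in each library of the 5 groups (horizontal axes; sh2 is shSlug2, sh1 is shSlug1, Luc is shLuc, par S and par C are the parental line starved and in complete medium); bars are means and whiskers ± 1 SD. Smc4, Tyms, Sdcbp and Nfkbia are higher with shSlug2 than with shLuc, Phldb2, Malat1 and Krt7 are lower, and Cdh1 overlaps and is highest in complete medium.

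Malat1, a long noncoding RNA of nuclear speckles, had 1185, 1238, 1853, 1284 and 1454 CPM with shSlug2, against 2692, 3035, 2856, 3659 and 2632 CPM with shLuc. No library overlapped, and the log2 change was -1.09 (SE 0.12, adjusted p = 1.2e-09). Neat1, which builds paraspeckles and lies beside Malat1 on chromosome 19, had 38.5, 34.5, 40.8, 33.1 and 29.1 CPM with shSlug2, against 55.6, 85.2, 89.9, 88.6 and 89.6 CPM with shLuc. It also fell without overlap (log2 change -1.18, SE 0.22, adjusted p = 0.00087). The share of nuclear RNA in these libraries was not measured.

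Phldb2, an anchor of microtubules at the cell cortex that binds beside integrin adhesions, had 595, 461, 536, 559 and 485 CPM with shSlug2, against 853, 726, 754, 845 and 868 CPM with shLuc. The groups did not overlap (log2 change -0.62, SE 0.11, adjusted p = 0.00087). Fbln2, the matrix protein fibulin-2, had 140, 193, 151, 157 and 145 CPM with shSlug2, against 241, 209, 214, 253 and 374 CPM with shLuc. It fell without overlap, with shLuc replicate 5 above the rest of its group (log2 change -0.69, SE 0.14, adjusted p = 0.0046), and the adjusted p was 0.0694 without that library. Tbcb, a chaperone of tubulin folding, averaged 45.6 ± 3.74 CPM with shSlug2 and 93.4 ± 19.5 CPM with shLuc, without overlap (adjusted p = 0.0036), a level 2.05 times higher with shLuc.

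Of 6 simple keratins 1 fell, Krt7, and of 24 genes of gastric and pancreatic lineage 1 fell, Ctse. Of all genes tested 0.176% were lower. Krt7, a keratin of duct cells, had 106, 118, 63.8, 112 and 149 CPM with shSlug2, against 189, 198, 226, 168 and 182 CPM with shLuc. It fell without overlap (log2 change -0.85, SE 0.19, adjusted p = 0.0085, and 0.0890 without shSlug2 replicate 3). Ctse, the gastric protease cathepsin E, averaged 130 ± 13.9 CPM with shSlug2 and 217 ± 28.9 CPM with shLuc, without overlap (log2 change -0.74, adjusted p = 0.014, with adjusted p up to 0.0674 without shLuc replicate 3, shSlug2 replicate 1 or shSlug2 replicate 4). Msln, the surface protein mesothelin, averaged 245 ± 16.7 CPM with shSlug2 and 354 ± 35.3 CPM with shLuc (log2 change -0.53, adjusted p = 0.027, lost in 7 of the 10 leave-one-out fits). Clu, the extracellular chaperone clusterin, averaged 625 ± 29.0 CPM with shSlug2 and 880 ± 55.2 CPM with shLuc (log2 change -0.49, adjusted p = 0.0036), a call kept in all 10. Msln and Clu fell outside the rule for named genes and were chosen after their values were seen.

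The next 4 calls were lost when single libraries were left out. S100a7a and S100a1, calcium-binding proteins, averaged 34.1 ± 13.7 and 135 ± 28.9 CPM with shSlug2, against 83.5 ± 31.5 and 219 ± 27.5 CPM with shLuc. Both were without overlap, with log2 changes of -1.32 and -0.71 (adjusted p = 0.024 and 0.043). Hdlbp, an RNA-binding protein, averaged 84.5 ± 14.4 CPM with shSlug2 and 140 ± 23.7 CPM with shLuc (log2 change -0.72, adjusted p = 0.026). Apob, the apolipoprotein of lipoprotein particles, averaged 79.7 ± 25.1 CPM with shSlug2 and 129 ± 35.1 CPM with shLuc (log2 change -0.72, adjusted p = 0.040). The adjusted p of each of these 4 passed 0.05 when 1 of several libraries was left out, reaching 0.198 for S100a7a, 0.190 for S100a1, 0.165 for Hdlbp and 0.308 for Apob. Cox6c, a subunit of cytochrome c oxidase, averaged 342 ± 41.5 CPM with shSlug2 and 485 ± 23.3 CPM with shLuc (log2 change -0.51, adjusted p = 0.014, and 0.0940 without shSlug2 replicate 3). It was the 1 call among 80 nuclear genes of oxidative phosphorylation, while 0.176% of all genes tested were lower.

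Of 9 measured EMT transcription factors, Snai2 fell and Sox4 rose, against 0.176% lower and 0.473% higher of all genes tested. Snai2 is the gene that the hairpin targets, so its fall says nothing about the list. Sox4 was the only other call. Sox4 had 785, 817, 802, 820 and 918 CPM with shSlug2, against 530, 674, 636, 668 and 567 CPM with shLuc, without overlap (log2 change 0.43, SE 0.11, adjusted p = 0.041, lost in 8 of the 10 leave-one-out fits, after TMM or quantile scaling, without mitochondrially encoded genes and with the replicate block). Zeb1 averaged 57.0 ± 16 CPM with shSlug2 and 70.1 ± 10.8 CPM with shLuc (log2 change -0.33, SE 0.23), and Zeb2 averaged 33.4 ± 10.1 CPM with shSlug2 and 28.6 ± 7.68 CPM with shLuc (0.21, SE 0.39), neither of which passed. Snai1 had 1 count in all 25 libraries, and Twist1 was not analysed here.

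Of 25 mesenchymal genes, 2 fell, Phldb2 and Fbln2, and none rose, against 0.176% lower and 0.473% higher of all genes tested. The median log2 change of the 25 was -0.17, with 19 of 25 below 0. Vim, vimentin, had 323, 288, 368, 319 and 365 CPM with shSlug2, against 352, 396, 378, 348 and 602 CPM with shLuc. The groups overlapped, and shLuc replicate 5 stood above the rest (log2 change -0.29, SE 0.12, adjusted p = 0.41). Fn1, fibronectin, averaged 43.2 ± 7.82 CPM with shSlug2 and 66.1 ± 21.0 CPM with shLuc (log2 change -0.56, adjusted p = 0.31), and Cald1, the actin-binding caldesmon, averaged 562 ± 40.4 CPM with shSlug2 and 689 ± 88.1 CPM with shLuc (-0.29, adjusted p = 0.50). Cdh2, N-cadherin, was at 0 to 2.88 CPM with shSlug2 and 0 to 12.4 CPM with shLuc, too few counts for a comparison. edgeR and DESeq2 both added Cd44, a receptor for hyaluronan (164 CPM with shSlug2, 249 CPM with shLuc), to the lower mesenchymal genes.

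No epithelial junction gene was called. Of 30 measured, none passed in limma, edgeR or DESeq2 and 3 had an unadjusted p under 0.05. Of all 12473 genes tested, 0.649% were called in limma and 1132 had an unadjusted p under 0.05. At that share a list of 30 is apt to hold no call. The median log2 change of the 30 was -0.21, with 9 above 0 and 21 below. Without overlap between the groups, 1 was higher and 1 lower with shSlug2, while 2.07% of all genes tested had no overlap. Cdh1, E-cadherin, the best known target of Slug repression, had 40.9, 34.5, 45.9, 33.1 and 38.8 CPM with shSlug2, against 48.2, 41.2, 55.8, 47.5 and 54.3 CPM with shLuc. The groups overlapped (log2 change -0.35, SE 0.22, adjusted p = 0.68). Of 9 measured genes reported elsewhere as repressed by Slug, none passed in limma or edgeR, 2 had an unadjusted p under 0.05 and DESeq2 called 1, Krt8, as lower. A list of 9 is likewise apt to hold no limma call. Krt8 averaged 212 ± 18.6 CPM with shSlug2 and 282 ± 28.4 CPM with shLuc, without overlap (log2 change -0.41, SE 0.13, adjusted p = 0.19), Krt18 averaged 5288 ± 427 CPM with shSlug2 and 5087 ± 540 CPM with shLuc (0.06, SE 0.10), and Krt19 averaged 193 ± 19.3 CPM with shSlug2 and 211 ± 51.5 CPM with shLuc (-0.10, SE 0.15). The bulk values cannot tell fewer cells with a message from less message per cell.

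The Slug-type E-box was looked for in the promoters of the calls. The motif was CAGGTG on either strand (CACCTG on the other) in the 250 bases before the RefSeq start site (GRCm38.p6). Of 59 higher genes 43 had a RefSeq window, and 1 of these (2.33%) held the motif, Tyms. Of 22 lower genes 14 had a window, and 4 (28.6%) held it, namely Krt7, Hdlbp, Apob and Phldb2. Of all genes tested 8996 had a window and 1609 (17.9%) held it. These are counts of letters in short windows and show no binding. The stretches around the motif (capitals) of 3 lower genes and the 1 higher gene are printed 5′ to 3′ on the strand of the gene to show where it stood.
Phldb2, chr16:45844506-45844571, minus strand: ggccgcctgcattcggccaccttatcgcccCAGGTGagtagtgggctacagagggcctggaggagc
Apob, chr12:7977446-7977511, plus strand: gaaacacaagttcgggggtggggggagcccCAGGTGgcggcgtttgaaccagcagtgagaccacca
Hdlbp, chr1:93478575-93478627, minus strand: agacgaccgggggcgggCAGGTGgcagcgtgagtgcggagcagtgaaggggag
Tyms, chr5:30073686-30073751, minus strand: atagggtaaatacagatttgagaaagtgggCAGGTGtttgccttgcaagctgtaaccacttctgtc
The motif ended 157 bases before the start in Phldb2, 195 in Apob, 227 in Hdlbp and 90 in Tyms. The stretch around the motif of Krt7 overlaps an annotated exon and is not printed. The windows of Phldb2 and Hdlbp lie inside the longer GENCODE models of these genes, outside exons.

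The same genes were read in the parental line, starved against complete medium. The 2 comparisons share no library between their group means, but both take their spread from the 1 model of all 25 libraries. Of 12473 genes tested, 1341 (10.8%) were higher and 1458 (11.7%) lower in starved than in complete-medium parental cells. Of the 59 genes higher with shSlug2, 27 (45.8%) rose and 12 (20.3%) fell with starvation. Of the 22 lower with shSlug2, 8 (36.4%) rose and 8 (36.4%) fell. Among the 6373 genes tested that reached 20 CPM with shSlug2 or shLuc, 18.8% rose and 15.1% fell with starvation. The part that expression level has in these shares was not tested. Seen from the starvation side, 8 of the 1341 starvation-induced genes (0.597%) were lower with shSlug2 and 27 (2.01%) higher, and 12 of the 1458 starvation-reduced genes (0.823%) were higher with shSlug2 and 8 (0.549%) lower. The plot of both changes shows genes on every side of both zero lines.

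Of the genes that starvation raised and shSlug2 lowered, Snai2 moved most, with 79.5 ± 14.5 CPM in starved and 7.54 ± 5.42 CPM in complete-medium parental cells (log2 change 3.39). Neat1 was at 211 ± 38.1 CPM starved and 96.4 ± 31.0 CPM in complete medium (1.18), and Phldb2 at 863 ± 54.5 CPM starved and 422 ± 60.1 CPM in complete medium (1.04). Fbln2 was at 528 ± 69.0 CPM starved and 298 ± 33.0 CPM in complete medium (0.82), and Apob at 540 ± 83.7 CPM starved and 338 ± 66.2 CPM in complete medium (0.69). Xist, the noncoding RNA of the inactive X chromosome, was at 525 ± 60.2 CPM starved and 226 ± 41.0 CPM in complete medium (1.22), and averaged 98.9 ± 24.2 CPM with shSlug2 and 172 ± 43.6 CPM with shLuc (log2 change -0.79, adjusted p = 0.0068, and up to 0.0571 without shSlug2 replicate 5 or shLuc replicate 4). For Apob, Neat1, Xist and Fbln2 the shSlug2 and shLuc means were both below those of the parental line in either medium. The shLuc means were 129, 81.8, 172 and 258 CPM in that order. For Snai2 and Phldb2 the shLuc mean lay between the parental means.

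Of the genes that starvation lowered and shSlug2 raised, Plk1 had 59.7 ± 16.9 CPM in starved and 182 ± 11.5 CPM in complete-medium parental cells (log2 change -1.64). Asf1b was at 40.8 ± 7.20 CPM starved and 76.3 ± 12 CPM in complete medium (-0.89), and Tyms at 55.4 ± 7.52 CPM starved and 103 ± 20.5 CPM in complete medium (-0.87). Limd2 was at 79.8 ± 36.3 CPM starved and 117 ± 28.1 CPM in complete medium (-0.64), and Smc4 at 398 ± 82.1 CPM starved and 607 ± 33.5 CPM in complete medium (-0.63). Gm20425, a predicted gene, was at 73.8 ± 14.8 CPM starved and 192 ± 23.5 CPM in complete medium (-1.38), and averaged 115 ± 25.3 CPM with shSlug2 and 68.6 ± 15.6 CPM with shLuc (log2 change 0.74, adjusted p = 0.043, lost in 7 of the 10 leave-one-out fits, after each rescaling and with the replicate block). The 50 replication genes had a median log2 change of -0.44 with starvation, and the 25 mesenchymal genes one of 0.63, each opposite in sign to the medians with shSlug2. The amino acid response, with a median of 1.49 under starvation and 0.24 with shSlug2, had the same sign in both. Other lists went either way. Signs were also the same for epithelial junction genes (-0.72 with starvation, -0.21 with shSlug2), simple keratins (-1.38, -0.56), gastric and pancreatic lineage (-1.26, -0.12) and NRF2 targets (-0.66, -0.14). They were opposite for mitosis (-1.39, 0.13) and sterol synthesis (-2.05, 0.14).

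**Figure D5:**
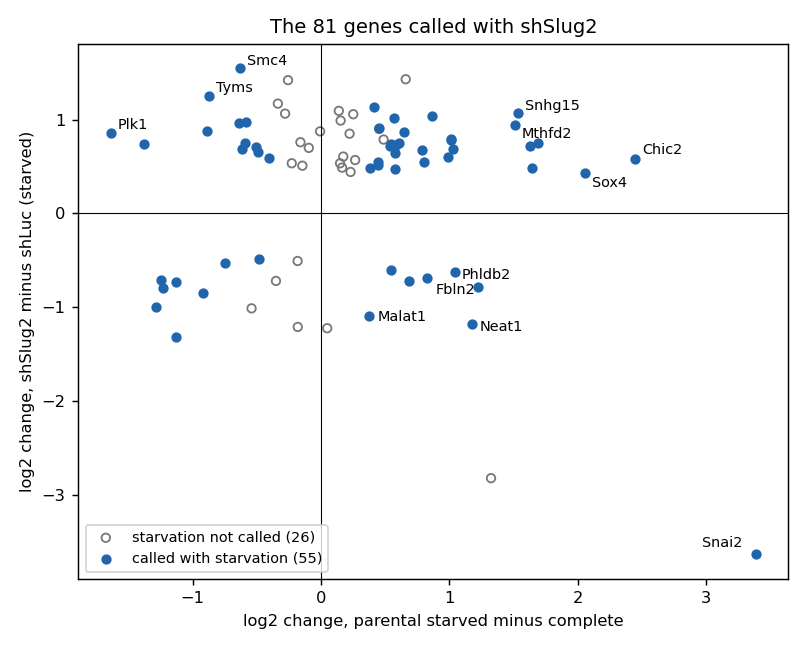
Log2 change of shSlug2 minus shLuc (vertical axis) against log2 change of starved minus complete-medium parental cells (horizontal axis) for the 81 genes called with shSlug2; filled points are also called with starvation (55) and open points are not (26). Snai2 lies far to the lower right at 3.39 and -3.64, Smc4, Tyms and Plk1 lie upper left, and Mthfd2, Snhg15 and Chic2 upper right.

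Comparison with the starved parental line placed the shLuc libraries as well. Of the 59 genes higher with shSlug2, the mean of starved parental cells lay between the shLuc and shSlug2 means for 25, below both for 26 and above both for 8. Of the 22 lower genes it lay above both for 12, below both for 5 and between them for 5. Smc4 averaged 398 ± 82.1 CPM and Tyms 55.4 ± 7.52 CPM in starved parental cells, both between the hairpin groups, and Nfkbia averaged 54.0 ± 20.01 CPM, below both. Malat1, at 1865 ± 306 CPM, lay between them. The shSlug2 and starved parental libraries differed in 3549 genes (28.5%), of which 57.7% were higher with shSlug2 and 45.9% after rescaling without mitochondrially encoded genes. The median log2 change of shSlug2 against starved parental cells was 0.05 for the replication genes and -0.43 for the condensin, cohesin and related genes. In starved parental cells Ncapg2 averaged 72.1 ± 7.97 CPM, above the shSlug2 and shLuc means. Ncapd3, at 75.2 ± 21.5 CPM, lay between them. Effects of carrying a hairpin and of the culture history of a line cannot be told apart from each other in these groups.

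The hairpins against Slug were set against each other directly. In 64 genes (0.513%) shSlug2 differed from shSlug1, 61 of them (0.489%) higher and 3 (0.0241%) lower with shSlug2. Without shSlug1 replicates 4 and 5, whose mitochondrial shares of 24.3% and 26.5% stood above the 17.3% to 18.3% of the other 3, the count was 27, and TMM scaling gave 38. The share of higher calls was 95.3% as deposited, 79.5% of 44 without mitochondrially encoded genes and 59.4% of 106 in edgeR with RLE factors. Several of the genes that differed most from shLuc did not pass this direct test. Smc4 averaged 686 ± 56.5 CPM with shSlug2 and 530 ± 154 CPM with shSlug1 (log2 difference 0.43, SE 0.14, adjusted p = 0.21). Tyms averaged 98.5 ± 25.1 CPM with shSlug2 and 88.5 ± 14.4 CPM with shSlug1 (0.14, SE 0.21, adjusted p = 0.90), and Sdcbp averaged 588 ± 54.9 CPM with shSlug2 and 654 ± 146 CPM with shSlug1 (-0.12, SE 0.13, adjusted p = 0.83). Since both hairpins were set against the same shLuc libraries, their changes from shLuc are not independent of each other. The change from shLuc was 1.55 with shSlug2 and 1.12 with shSlug1 for Smc4. It was 1.14 with shSlug2 and 1.26 with shSlug1 for Sdcbp, and -1.09 with shSlug2 and -0.66 with shSlug1 for Malat1. The median of the replication genes was 0.53 with shSlug2 and 0.46 with shSlug1.

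Some changes differed between the hairpins by direct test. Limd2 averaged 153 ± 13.8 CPM with shSlug2 and 72.4 ± 18.6 CPM with shSlug1 (log2 difference 1.10, adjusted p = 0.0022), with shLuc at 78.2 CPM beside shSlug1. Sox4 averaged 828 ± 52.0 CPM with shSlug2 and 586 ± 9.13 CPM with shSlug1 (0.50, adjusted p = 0.012), with shLuc at 615 CPM. Dek, a chromatin protein chosen after its values were seen, averaged 649 ± 107 CPM with shSlug2 and 292 ± 33.9 CPM with shSlug1 (1.14, adjusted p = 4.7e-09), with shLuc at 401 CPM between them. Cox6c averaged 342 ± 41.5 CPM with shSlug2 and 501 ± 59.0 CPM with shSlug1 (-0.55, adjusted p = 0.0068), with shLuc at 485 CPM.

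Several mesenchymal and lineage genes were lower with shSlug1 than with shSlug2. Phldb2 averaged 527 ± 54.6 CPM with shSlug2 and 376 ± 56.6 CPM with shSlug1 (log2 difference 0.49, adjusted p = 0.019), and Vim averaged 332 ± 33.8 CPM with shSlug2 and 225 ± 20.7 CPM with shSlug1 (0.56, adjusted p = 0.0083). Cald1 averaged 562 ± 40.4 CPM with shSlug2 and 351 ± 96.9 CPM with shSlug1 (0.72, adjusted p = 0.00078), and Ctse averaged 130 ± 13.9 CPM with shSlug2 and 68.9 ± 16.5 CPM with shSlug1 (0.93, adjusted p = 0.00082). The largest difference among named genes was in Napg, a factor of vesicle fusion. It averaged 44.4 ± 8.96 CPM with shSlug2 and 10.8 ± 4.84 CPM with shSlug1 (2.03, adjusted p = 0.00018), with shLuc at 36.3 CPM. Cdk13 (1.70), Idh3b (1.43), the EGF-family ligand Ereg (1.43) and the mitochondrial import receptor Tomm70a (1.34) were likewise higher with shSlug2 than with shSlug1, while Car2 (-1.18) and Aldoa (-0.47) were lower.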

How the data were processed

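Total RNA of 25 samples was extracted with the PureLink RNA Mini Kit and made into libraries with the QIAseq UPX 3′ Transcriptome kit, per the labels' protocols. The authors deposited 1 table of CPM values for 30926 genes, each column summing to 1e+06, on mm10 per the submitters' processing notes. Neither labels nor notes name the aligner, the use of molecular identifiers or strand, or the treatment of reads shared between genes, and genes with close copies or antisense partners are uncertain. Dividing by the value of 1 read gave whole counts for 100% of values (tolerance 0.001).

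Genes that reached 5 CPM in 5 or more libraries, 12473 in all, entered 1 model of the 25 libraries with a mean for each group (20 residual degrees of freedom). The model was fitted on log2(CPM + 1) by limma 3.58.1 with a trend on level, under R 4.3.3, and tests were two-sided. Fold changes on this scale can understate or overstate the change of low genes. Gm15834 had a log2 change of -2.82, while its mean was 3.43 times higher with shLuc. P-values were adjusted by Benjamini-Hochberg over all genes tested, and called at 0.05. Alternatives were edgeR 4.0.16 quasi-likelihood tests and DESeq2 1.42.0 on the recovered counts, other pseudocounts, filters and scalings, a replicate block and leaving out each library. Normalised counts had been assumed in planning. Coordinates are from GENCODE M21, and promoter sequences from RefSeq (GRCm38.p6). Scripts were tested on simulated data.

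Genes named are Snai2, the 14 higher and 14 lower calls of largest change with at least 20 CPM in the higher group, no overlap and no predicted symbol, up to 4 calls per list, 5 genes each way between hairpins, 6 each way against starvation, and fixed EMT and stress genes. The members and lists were chosen with earlier results of these data known. Counting error alone is covered by limits for 0 counts (3 counts). Some genes that met the rule are not reported here.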

Additional observations from a re-analysis of the deposited data

Results flagged for a closer look

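In 9 of 124 groups of 5 libraries checked, 1 library stood apart from the other 4 by Dixon's test at the 95% level. Chance flags about 1 in 20 groups (5%). With shSlug2, Aldoa was at 994 CPM in replicate 4 against 802 to 847 CPM in the others, and Rfc4 at 580 CPM in replicate 4 against 325 to 385 CPM. Idh3b was at 133 CPM in shSlug2 replicate 5 against 74.8 to 91.2 CPM in the others, and Sox4 at 918 CPM in replicate 5 against 785 to 820 CPM. With shLuc, replicate 5 was high for Apob at 190 CPM against 105 to 126 CPM, for Fbln2 at 374 CPM against 209 to 253 CPM and for Vim at 602 CPM against 348 to 396 CPM. Neat1 was at 55.6 CPM in shLuc replicate 1 against 85.2 to 89.9 CPM in the others. Mthfd2 was at 220 CPM in shLuc replicate 3 against 263 to 271 CPM in the others.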

How the results depend on the processing

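Against shLuc, the 81 calls (59 higher, 22 lower) became 137 (91 and 46) with edgeR after TMM scaling, 158 (95 and 63) with edgeR and RLE factors and 140 (95 and 45) with DESeq2, which gave no adjusted p for 9431 genes, Snai2 among them. Quantile scaling left 38 higher calls and 32 lower. Leaving out 1 library gave 57 to 80 calls, 38 to 63 higher (38 without shSlug2 replicate 4) and 16 to 28 lower. The Snai2 log2 change ran from -3.89 to -3.11 without 1 library and stayed past the threshold in every alternative that gave it a value. Of the 81 calls, 57 were kept after quantile scaling and 64 without mitochondrially encoded genes. Against shSlug1 the 64 calls became 38 with TMM scaling and 106 with edgeR and RLE factors. They ranged from 37 (without shSlug2 replicate 4) to 52 without 1 shSlug2 library, and were 27 without shSlug1 libraries 4 and 5, an alternative added after seeing the data. Against starved parental cells, 3184 to 3343 calls were left without 1 shSlug2 library. No named gene with a call changed direction. Of named genes that were not called, 5 changed sign when single libraries were left out, with log2 changes of -0.10 to 0.09 for Dusp6, -0.01 to 0.10 for Krt18, -0.24 to 0.01 for Krt19, -0.18 to 0.03 for Trib3 and -0.06 to 0.16 for Tomm70a, and Krt18 was at -0.11 after quantile scaling. Over all named genes and alternatives, a call was lost in 116 combinations and gained in 2 (Krt8), and the cause was not tested.

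Same-numbered shSlug2 and shLuc libraries did not deviate together (correlations -0.050 to 0.0070). Counting error is part of these deviations at this depth, so low correlations cannot show whether the numbers pair the samples. With the replicate block there were 76 calls (52 higher, 24 lower). At these depths a gene under about 20 CPM rests on a few counts per library, which limits the changes that can be detected in it.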
